A study of Mus musculus with 6 samples.

Results

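The DnaJ proteins, also called J-domain proteins, were examined in D10 T cells as the family of genes whose symbols begin with Dnaja, Dnajb or Dnajc and which the deposited table lists as protein coding. The rule uses names only and no measured value, although the family was chosen with earlier results of these data known. It takes 45 of the 41079 genes listed, of which 4 belong to class A, 13 to class B and 28 to class C. D10 is an established line of cloned mouse CD4+ helper T cells that recognizes a conalbumin peptide. Cells were cultured for 24 h either at 37°C (non-acclimated) or at 26°C (cold-acclimated), with no other treatment named. Poly(A)-selected RNA was sequenced from 3 libraries of each condition, described as independently prepared. Since all cells come from 1 cloned line, the p-values below measure the spread between these cultures only.

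J-domain proteins bring unfolded or partly folded proteins to Hsp70 chaperones and start the cycle in which Hsp70 splits ATP and closes over its client. The step depends on a short signature of histidine, proline and aspartate in the J domain. Class A members carry a glycine- and phenylalanine-rich region and a zinc finger besides the J domain, class B members lack the zinc finger, and class C members share little with the others except the J domain. Class C therefore holds specialists that place Hsp70 at ribosomes, spliceosomes, membranes of the endoplasmic reticulum (ER), endosomes or the mitochondrial import motor. Some members are heat shock genes or targets of the unfolded protein response, and the family belongs to the protein quality control that cells adjust with temperature.

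The coding bases around the signature are printed for the 4 members that passed the test below, for the 2 abundant cytosolic class A members and for Dnajb6, so that the part they share can be seen. Each line runs 5′ to 3′ along the coding sequence of the GENCODE vM39 canonical transcript (GRCm39). Capitals mark the codons for histidine, proline and aspartate, with 24 bases of coding sequence on either side.
Dnaja3 (chr16:4505226-4507892, plus strand, across 2 exons): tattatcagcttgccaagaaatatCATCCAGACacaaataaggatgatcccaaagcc
Dnaja1 (chr4:40723788-40723844, plus strand): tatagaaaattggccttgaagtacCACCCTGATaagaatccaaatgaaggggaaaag
Dnaja2 (chr8:86280546-86280602, minus strand): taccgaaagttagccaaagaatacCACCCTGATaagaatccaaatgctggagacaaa
Dnajb2 (chr1:75214100-75214156, plus strand): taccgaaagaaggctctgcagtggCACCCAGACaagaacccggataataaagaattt
Dnajb5 (chr4:42953244-42953300, plus strand): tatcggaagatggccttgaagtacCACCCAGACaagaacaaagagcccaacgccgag
Dnajb6 (chr5:29955937-29955993, plus strand): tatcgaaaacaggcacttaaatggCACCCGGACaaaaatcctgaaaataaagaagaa
Dnajc13 (chr9:104061912-104063960, minus strand, across 2 exons): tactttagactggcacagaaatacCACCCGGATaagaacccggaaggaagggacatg

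All 45 members matched a coding sequence, and 44 of them encode the signature. The exception was Dnajb13, a gene known from sperm flagella. The cysteine repeat of the zinc finger was found in all 4 class A members, 4 times in Dnaja3 and 3 times in Dnaja1, and in no member of class B or C. Over 43 residues centred on the signature, Dnaja1 and Dnaja2 were 72.1% identical, whereas Dnaja1 and the mitochondrial Dnaja3 were 41.9% identical. Dnajb2 and Dnajb6 were 79.1% identical over the same window. Dnajc13 stood out by its length of 2243 residues, with the signature at residue 1332.

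Expression is given as TPM (transcripts per 1000000), a unit in which reads are divided by gene length and every library has an equal sum. The reads underlying these values were recovered and ranged from 16899628 to 31290854 per library. Of 17 T cell markers, 13 were at 1 TPM or more in every library. Thy1 was at 0 in all, Cd5 reached at most 0.0454 TPM and Trbc1 at most 0.214 TPM. Cd4 itself was at 310 and 328 TPM in the libraries of replicate 3 and at 1.30 TPM or less in the other 4, so the CD4+ label is met by its defining gene in replicate 3 alone. Replicate 2 differed as well: Trac was at 15.0 and 12.8 TPM there and at 129 to 207 TPM elsewhere. Cd3d was at 64.3 and 78.6 TPM in replicate 2 and at 240 to 332 TPM elsewhere. The B cell markers stayed under 1 TPM, the macrophage gene Lyz2 reached 14.8 TPM, and Hba-a1 was at 60.8 to 485 TPM with both Hbb genes at 0. Libraries with the same replicate number deviated from their condition's mean in the same direction, so values are given in the order of replicates 1, 2 and 3, and results were also computed with the replicate as a term and without replicate 3. The scale between libraries matters as well. Over all 12227 tested genes, the log2 fold change had a median of -0.34 on the TPM as deposited and 0.03 after median-of-ratios scaling. In bulk RNA, fewer cells expressing a gene and less RNA per cell cannot be told apart.

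Of the 45 members, 36 had a mean TPM of at least 1 and were tested with limma on log2(TPM + 1), a scale that understates changes of low genes. Upregulated and downregulated mean a Benjamini-Hochberg adjusted p under 0.05 over all tested genes together with a log2 fold change of 1 or more in either direction. Dnaja3, Dnajb2, Dnajb5 and Dnajc13 were downregulated in cold-acclimated cells, and no member was upregulated. The 4 downregulated members are 11.1% of those tested, beside 16.0% of all genes, and 2.63% of all genes were upregulated. At an unadjusted p under 0.05, 4 members were higher, beside 7.75% of all genes, and 8 lower, beside 30.0%. limma-voom on the recovered reads called 0 members upregulated, beside 3.34% of all genes, and 3 downregulated, beside 13.9%.

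Median-of-ratios scaling is the normalization named for the study's own test, DESeq2 on read counts. Here it was applied to the deposited TPM before limma, and the picture shifted upwards. Dnajc5, Dnajc17 and Dnajc21 were then upregulated, beside 6.87% of all genes, and Dnaja3 alone was downregulated, beside 8.60%. With the replicate as a term and the deposited scale, 7 members were downregulated, the additional ones being Dnajc9, Dnajc10 and Dnajc11, beside 21.9% of all genes, and 0 were upregulated, beside 3.75%. With both changes together, Dnajb4, Dnajc5, Dnajc17 and Dnajc21 were upregulated, beside 9.23% of all genes, and Dnaja3, Dnajb2, Dnajc10 and Dnajc11 downregulated, beside 12.4%. Dnaja3 was the only member called under each of these 4 fits. The upregulated calls after median-of-ratios scaling depended on which libraries were kept. When 1 library was also left out, 0 members were upregulated in 4 of 6 fits, while 0 to 37 genes in all were, Dnajc21 alone was without non-acclimated replicate 3, and all 3 were without cold-acclimated replicate 3. On the deposited TPM without the replicate term both shares lay below the background, and nothing particular to the family is read from any of these shares.

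**Figure D1:**
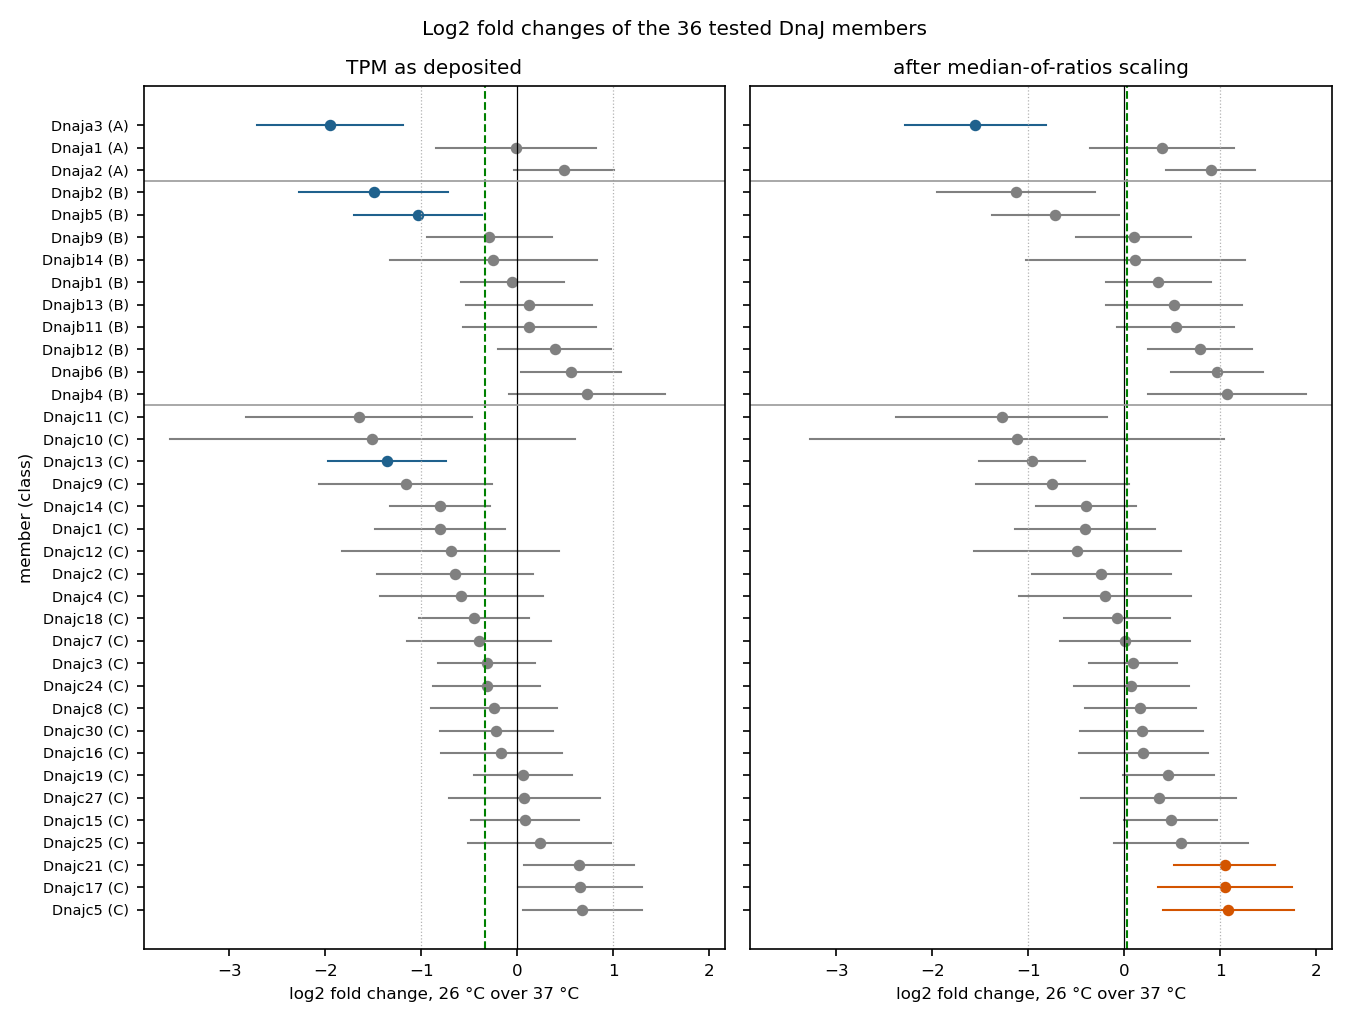
Log2 fold change (26°C over 37°C) of the 36 tested members, by class, on the TPM as deposited (left) and after median-of-ratios scaling (right). Points are limma estimates on log2(TPM + 1) and bars their 95% confidence intervals from 3 libraries per condition, with downregulated members in blue, upregulated in orange, dotted lines at -1 and 1 and the green dashed line at the median of all 12227 tested genes. Dnaja3 is blue in both panels, while Dnajb2, Dnajb5 and Dnajc13 are blue on the left only and Dnajc5, Dnajc17 and Dnajc21 orange on the right only.

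The median log2 fold change of the tested members was -0.25, which is 0.09 above the median of all genes. Class A (3 tested) had a median of -0.02, class B (10 tested) of 0.04 and class C (23 tested) of -0.32, beside -0.34 over all genes. In TPM summed over a class, class C fell in each pair, from 1527, 1690 and 1675 in non-acclimated cells to 1082, 1072 and 1518 in cold-acclimated cells. The sums of class A and class B overlapped between the conditions, at 366 to 573 and 411 to 597 TPM for class A and at 456 to 488 and 478 to 644 TPM for class B. These medians and sums are descriptions of the lists, and the order of the classes was not tested.

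Most of the family's transcripts came from a few genes. By mean TPM over the 6 libraries the order was Dnajc9 (255), Dnajc8 (253), Dnaja1 (211), Dnaja2 (211), Dnajc2 (201), Dnajb11 (177), Dnajb6 (173) and Dnajc3 (136), and these 8 were the members above 100 TPM. Neighbours in this order lay within the spread of their libraries. The order differs between the conditions: Dnajc9 had a mean of 342 TPM in non-acclimated cells and of 169 TPM in cold-acclimated cells, where Dnaja2 (246), Dnajc8 (236), Dnaja1 (209), Dnajb6 (206) and Dnajb11 (188) were above it. Another 21 members had a mean of 10 to 100 TPM and 7 a mean of 1 to 10 TPM. The 10 highest members held 70.2% to 80.9% of the family's TPM in each library.

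**Figure D2:**
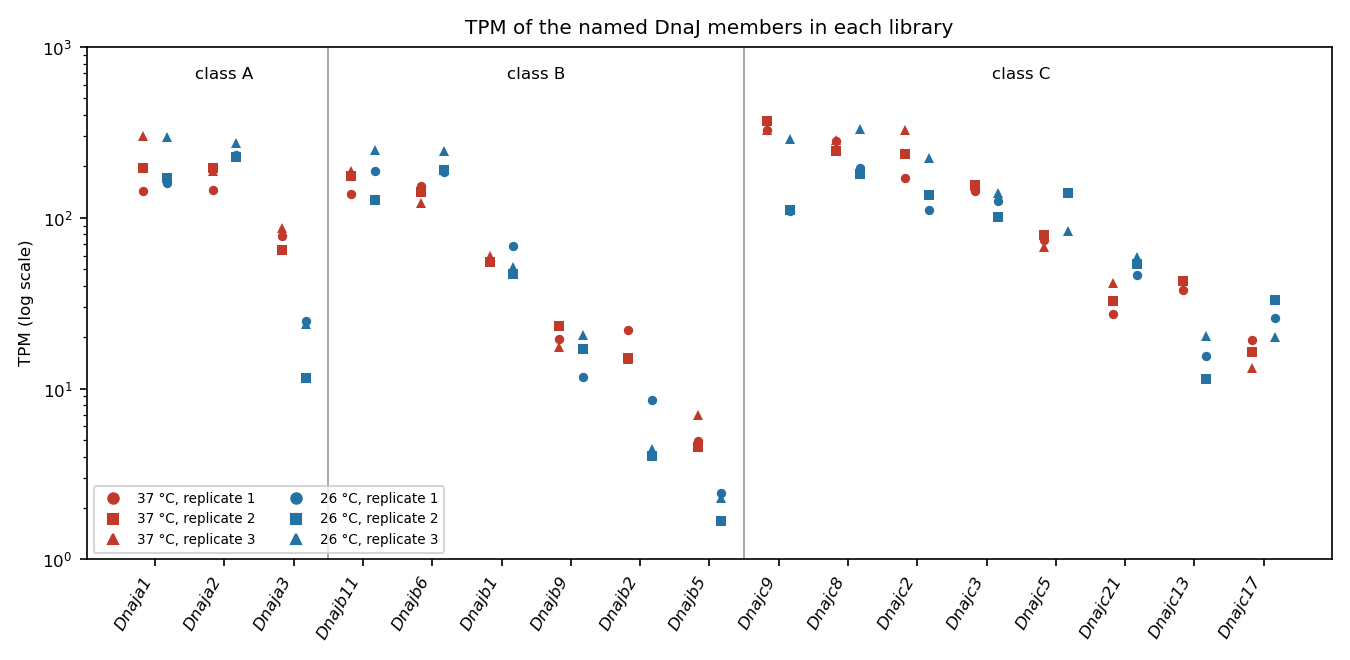
TPM (log scale) of the named members in each library, by class and in falling order of their mean, for 37°C (red) and 26°C (blue), with replicates 1, 2 and 3 as circles, squares and triangles. All 3 cold-acclimated points of Dnaja3, Dnajb2, Dnajb5 and Dnajc13 lie below the 37°C points, and those of Dnaja2, Dnajb6, Dnajc5, Dnajc17 and Dnajc21 lie above them.

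Dnaja3 fell in cold-acclimated cells. It encodes the class A protein of the mitochondrial matrix, which works with the mitochondrial Hsp70 Hspa9 (mortalin). It was at 78.2, 65.1 and 86.9 TPM in non-acclimated cells and at 24.7, 11.5 and 23.8 TPM in cold-acclimated cells. Every cold-acclimated library was below every non-acclimated one, and within pairs the level at 26°C was 0.316, 0.177 and 0.274 times that at 37°C. The mean went from 76.7 ± 11.0 TPM to 20.0 ± 7.37 TPM (SD, n = 3 each), and these values rest on 274 to 2767 reads per library. By limma the log2 fold change was -1.95 (SE 0.33, 95% interval -2.71 to -1.19, adjusted p = 0.0109), and after median-of-ratios scaling -1.55 (adjusted p = 0.0216). It was called under each of the 15 planned and added alternatives, with limma adjusted p between 0.00526 and 0.0498. When median-of-ratios scaling was combined with leaving out 1 library, it was called in 2 of 6 fits, and in the other 4 its adjusted p was 0.0575 to 0.08 while 0 to 73 genes in all were downregulated.

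The cytosolic class A proteins behaved otherwise. Dnaja1 and Dnaja2 are general partners of the constitutive cytosolic Hsp70. Dnaja1 was at 143, 195 and 300 TPM in non-acclimated cells and at 159, 171 and 297 TPM in cold-acclimated cells, so the conditions overlapped, with replicate 3 the highest under both. Its log2 fold change was -0.02 (95% interval -0.85 to 0.82, limma adjusted p = 0.98), and 0.40 after median-of-ratios scaling, so that its direction depends on the scale. Gm6297, a noncoding gene at 25.1 to 142 TPM, overlaps Dnaja1 on the opposite strand and was also highest in replicate 3 under both conditions. The part of Gm6297 reads in the count of Dnaja1 was not tested. Dnaja2 was at 144, 196 and 187 TPM against 234, 228 and 275 TPM, with every cold-acclimated library above every other. Its log2 fold change of 0.49 (SE 0.22) did not pass the test (limma adjusted p = 0.153), and after median-of-ratios scaling it was 0.90 (adjusted p = 0.0262), past the p threshold but under the fold threshold. Dnaja4, the remaining class A gene, was represented by at most 3 reads in any library.

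Among class B proteins of the cytosol and nucleus, both directions occurred. Dnajb2, a J protein with ubiquitin-binding motifs that passes clients to the proteasome, was at 22.0, 15.2 and 14.9 TPM in non-acclimated and 8.58, 4.05 and 4.43 TPM in cold-acclimated cells. The conditions did not overlap, and its log2 fold change was -1.50 (SE 0.33, limma adjusted p = 0.0222). It lost the call without non-acclimated replicate 1 or 2 or cold-acclimated replicate 2 (adjusted p 0.0762 to 0.0814) and after median-of-ratios scaling (-1.12, adjusted p = 0.0648), within a range of 0.00737 to 0.122 over all alternatives. Dnajb5, close in sequence to Dnajb1, fell from 4.92, 4.53 and 6.99 TPM to 2.44, 1.68 and 2.28 TPM, again without overlap, on 61 to 339 reads per library. Its log2 fold change of -1.04 (SE 0.29, limma adjusted p = 0.0413) lay at the fold threshold, and the call was lost when any library except cold-acclimated replicate 3 was left out (adjusted p over the 6 fits 0.0463 to 0.134) and after median-of-ratios scaling (-0.72, adjusted p = 0.113).

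Dnajb6, which holds back the aggregation of polyglutamine proteins, was at 154, 142 and 123 TPM in non-acclimated cells and at 185, 190 and 245 TPM in cold-acclimated cells. The conditions did not overlap, and the ratio within pairs was 1.20, 1.34 and 2.00. Its log2 fold change was 0.56 (95% interval 0.04 to 1.08, limma adjusted p = 0.112), and 0.97 after median-of-ratios scaling (adjusted p = 0.0233), just under the fold threshold. Gm5129, a noncoding gene at 1.94 to 12.0 TPM, overlaps Dnajb6 on the opposite strand and was also higher in every cold-acclimated library. Dnajb4 was also higher without overlap, at 4.16, 5.51 and 2.14 TPM against 6.52, 8.64 and 5.61 TPM, and was called upregulated with median-of-ratios scaling and the replicate as a term together (1.07, adjusted p = 0.0205). Dnajb1, the classic heat-inducible member, did not move in 1 direction. It was at 55.5, 54.9 and 59.8 TPM against 68.2, 46.8 and 51.2 TPM, with a log2 fold change of -0.05 (95% interval -0.58 to 0.48, limma adjusted p = 0.901) and of 0.36 after median-of-ratios scaling.

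The ER has 11 members of the family, all of them tested, and none was called on the deposited TPM without the replicate term. Their luminal members help the ER Hsp70 Hspa5 (BiP), and several are targets of the unfolded protein response. Dnajb11, which binds nascent chains entering the ER, was at 138, 175 and 189 TPM in non-acclimated and 187, 127 and 250 TPM in cold-acclimated cells, an overlap in which replicates 1 and 3 were higher and replicate 2 lower at 26°C. Dnajc3, a co-chaperone that also inhibits the kinase PERK, was at 143, 155 and 154 TPM against 125, 100 and 139 TPM. It was lower without overlap, but its log2 fold change of -0.32 (SE 0.22, limma adjusted p = 0.325) did not pass and became 0.09 after median-of-ratios scaling. Dnajb9, which hands misfolded proteins to degradation, was at 19.6, 23.1 and 17.5 TPM against 11.7, 17.2 and 20.6 TPM, and the pairs did not move the same way.

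Dnajc10 varied more between replicates than any other abundant ER member. It encodes an ER reductase that opens disulfide bonds of proteins bound for degradation. In non-acclimated cells it was at 76.9, 102 and 8.77 TPM and in cold-acclimated cells at 20.7, 21.9 and 5.80 TPM, so that replicate 3 was low under both conditions. Each pair was lower at 26°C, by factors of 0.270, 0.216 and 0.661. The log2 fold change was -1.51 (SE 0.91, limma adjusted p = 0.266). With the replicate as a term the adjusted p was 0.0176, and without both libraries of replicate 3 the log2 fold change was -2.00 (adjusted p = 0.00424). Replicate 3 is also the one in which Cd4 was high, and the part of that difference in this result was not tested. Dnajc1, Dnajc14 and Dnajc18 were lower in all cold-acclimated libraries. Dnajc1 overlaps Mllt10 on the opposite strand, which was at 25.2 to 40.6 TPM against 12.2 to 13.1 TPM. Dnajc14 had a limma adjusted p of 0.0426 with a log2 fold change of -0.80, which is under the fold threshold. It overlaps Ormdl2 on the opposite strand, which was also lower in every cold-acclimated library. Ormdl2 was at 80.4, 81.3 and 58.5 TPM against 43.7, 33.5 and 49.6 TPM. Dnajb12, Dnajb14, Dnajc16 and Dnajc25 overlapped between the conditions, at 3.86 to 47.1 TPM.

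Of the 7 members placed in mitochondria, 6 were tested and Dnaja3, described above, was the one called. Dnajc11, which belongs to the complex that shapes the cristae and bridges the inner and outer membranes, was at 12.0, 21.6 and 33.2 TPM in non-acclimated and at 4.15, 3.77 and 12.3 TPM in cold-acclimated cells. The ranges touched, since cold-acclimated replicate 3 exceeded non-acclimated replicate 1, but each pair fell, to 0.345, 0.174 and 0.372 times the level at 37°C. Its log2 fold change was -1.65 (SE 0.50, limma adjusted p = 0.0552). With the replicate as a term it was downregulated (adjusted p = 0.00834), also after median-of-ratios scaling (-1.28, adjusted p = 0.0171). Dnajc15 and Dnajc19 encode J proteins of the import motor of the inner membrane, where they stimulate Hspa9. Dnajc15 was at 57.8, 74.0 and 64.9 TPM against 57.1, 66.2 and 86.3 TPM, and Dnajc19 at 21.3, 23.7 and 20.6 TPM against 20.8, 22.5 and 25.5 TPM. Both overlapped between the conditions, with the highest value in cold-acclimated replicate 3. Dnajc4 and Dnajc30 overlapped as well, at 7.97 to 39.1 TPM, and Dnajc28 had at most 2 reads in a library.

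The 6 members that act on ribosomes, splicing, histones or translation factors included the most abundant genes of the family. Dnajc9, a chaperone of histones H3 and H4, was at 326, 371 and 328 TPM in non-acclimated cells and at 109, 111 and 288 TPM in cold-acclimated cells. Replicates 1 and 2 fell to 0.336 and 0.299 times their level at 37°C, and replicate 3 to 0.878 times. The conditions did not overlap, and the log2 fold change was -1.16 (SE 0.39, limma adjusted p = 0.0688). It was called with the replicate as a term (adjusted p = 0.0317), without cold-acclimated replicate 3 (-1.62, adjusted p = 0.00368) and without both libraries of replicate 3 (-1.65, adjusted p = 0.00487), but not after median-of-ratios scaling (-0.75, adjusted p = 0.157). Dnajc2, which sits at the ribosomal exit with the Hsp70-like Hspa14, was at 171, 237 and 326 TPM against 111, 135 and 225 TPM. Each pair was lower, by factors of 0.651, 0.572 and 0.689, and with the replicate as a term the limma adjusted p of its log2 fold change of -0.65 went from 0.217 to 0.034. After median-of-ratios scaling its log2 fold change was -0.24 (limma adjusted p = 0.614, and 0.287 with the replicate as a term).

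Dnajc21 and Dnajc17 were higher in every cold-acclimated library. Dnajc21 takes part in the maturation of the large ribosomal subunit and was at 27.4, 32.7 and 41.7 TPM against 46.4, 53.5 and 59.2 TPM. Its log2 fold change was 0.64 (SE 0.24, limma adjusted p = 0.0979), and 1.05 after median-of-ratios scaling (adjusted p = 0.0241), where it was called. With 1 library left out besides that scaling, its limma adjusted p was 0.0806 to 0.102 in 4 of 6 fits, and the call held without non-acclimated or cold-acclimated replicate 3. Dnajc17, a splicing-associated J protein, was at 19.1, 16.4 and 13.3 TPM against 26.0, 33.1 and 20.0 TPM. On the deposited TPM the log2 fold change was 0.65 (SE 0.28, limma adjusted p = 0.127), and after median-of-ratios scaling 1.05 with an adjusted p of 0.05 after rounding, just inside the threshold. With 1 library left out besides, it was called without cold-acclimated replicate 3 only, and the adjusted p in the other 5 fits was 0.0978 to 0.153. It overlaps Zfyve19 on the opposite strand, which was lower in every cold-acclimated library, at 18.8 to 29.4 TPM against 13.2 to 14.2 TPM. Dnajc8, a spliceosome component, was at 280, 245 and 284 TPM against 196, 180 and 331 TPM, lower in 2 pairs and higher in replicate 3, and Dnajc24, needed for diphthamide on elongation factor 2, overlapped at 15.4 to 23.8 TPM.

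The 2 tested members of vesicle traffic had estimates of opposite sign, and on the deposited TPM Dnajc13 was the one called. Dnajc13, an endosomal J protein that uncoats clathrin and steers retrograde sorting, was at 37.7, 42.4 and 42.7 TPM in non-acclimated cells and at 15.5, 11.4 and 20.3 TPM in cold-acclimated cells. The conditions did not overlap, at 40.9 ± 2.81 and 15.8 ± 4.43 TPM (SD, n = 3 each), and the log2 fold change was -1.36 (SE 0.26, limma adjusted p = 0.0159). After median-of-ratios scaling it was -0.96 (adjusted p = 0.035), under the fold threshold, and the call was lost without non-acclimated replicate 1 or 2 or cold-acclimated replicate 1 or 2 (adjusted p 0.0566 to 0.0728). Gm46130, a noncoding gene, overlaps Dnajc13 on the opposite strand and was also lower in every cold-acclimated library. It was at 3.64, 3.78 and 3.97 TPM against 1.82, 1.90 and 1.59 TPM, and the part of its reads in the count of Dnajc13 was not tested. Dnajc5, the palmitoylated cysteine string protein of secretory vesicles, was at 74.0, 79.8 and 67.1 TPM against 140, 140 and 83.7 TPM. Every cold-acclimated library was higher, with replicate 3 rising least. The log2 fold change was 0.68 (SE 0.27, limma adjusted p = 0.107), and after median-of-ratios scaling 1.09 (adjusted p = 0.0429). With 1 library left out besides, it was called without cold-acclimated replicate 3 only, and the limma adjusted p in the other 5 fits was 0.0842 to 0.142. Dnajc6, the neuronal auxilin, had at most 5 reads in a library.

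The other members, apart from Dnajc7, were low or are known from other tissues. Dnajb13 was at 14.8 to 25.9 TPM in all libraries and overlapped between the conditions. It lies 3385 bases from Ucp2, which is on the other strand at 817 to 1535 TPM, and the part of Ucp2 reads in its count was not tested. Dnajc7, a cytosolic adaptor between Hsp70 and Hsp90, was at 74.5, 78.0 and 112 TPM against 47.5, 59.9 and 98.8 TPM, lower in each pair. Dnajc12 and Dnajc27 were at 0.326 to 3.21 TPM. Dnajb3, Dnajb8, Dnajc22 and Dnajc5g had 0 reads in every library, which allows up to 3 reads in each, and Dnajb7 and Dnajc5b had at most 2 reads in a library. These limits cover counting error only. Of the 36 tested members, 11 overlap a gene on the opposite strand with a mean of 1 TPM or more, and the strand setting of the counting is not given in the sources used here.

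Within replicate pairs, 7 members (19.4%) were higher at 26°C in all 3 pairs, beside 18.2% of all genes, 17 (47.2%) were lower in all 3, beside 47.9%, and 12 were mixed. Without reference to pairs, 6 members (16.7%) were higher in every cold-acclimated library than in any other, beside 9.69% of all genes, and 9 (25.0%) were lower, beside 31.4%. The 6 higher ones were Dnaja2, Dnajb4, Dnajb6, Dnajc5, Dnajc17 and Dnajc21.

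**Figure D3:**
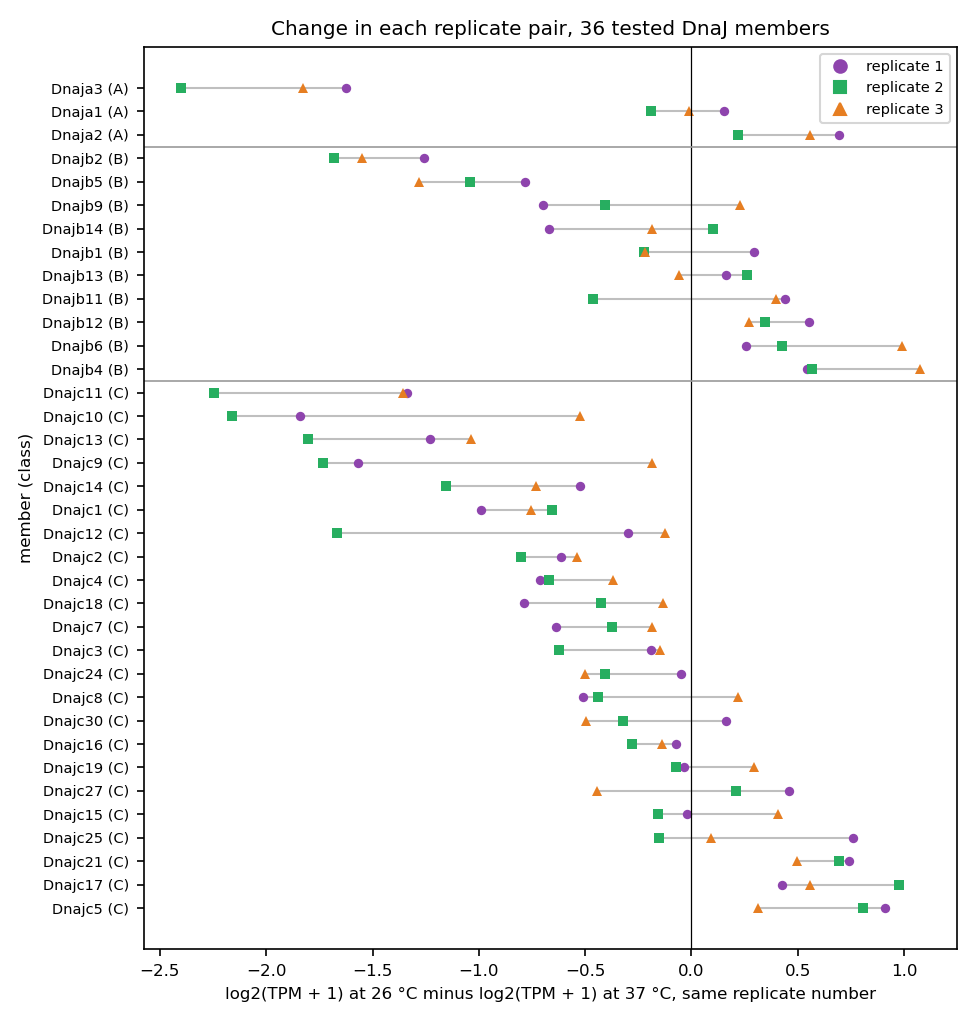
Change of each tested member within each replicate pair, as log2(TPM + 1) at 26°C minus log2(TPM + 1) at 37°C, by class, with replicates 1, 2 and 3 in purple, green and orange and a grey line over their range. Dnaja3, Dnajb2 and Dnajb5 lie far left of 0 in all pairs, Dnajc9 and Dnajc10 lie closest to 0 in replicate 3, and 12 members have points on both sides of 0.

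The partners of the family were listed as 11 Hsp70 proteins, 14 nucleotide exchange factors, 4 Hsp70 cochaperones without a J domain and 4 J-domain proteins under other names. Of these 33 genes, 29 were tested. On the deposited TPM limma called 0 of them, beside 2.63% of all genes upregulated and 16.0% downregulated. At an unadjusted p under 0.05, 2 were higher, beside 7.75% of all genes, and 3 lower, beside 30.0%. By limma-voom 0 were called, beside 3.34% of all genes upregulated and 13.9% downregulated. Hspa5 was at 1904, 2089 and 1285 TPM in non-acclimated cells and at 5084, 3533 and 2257 TPM in cold-acclimated cells, with no overlap. Its log2 fold change was 1.00 after rounding, just under the fold threshold (SE 0.36, limma adjusted p = 0.0872), and after median-of-ratios scaling it was upregulated (1.41, adjusted p = 0.0487). Hspa9 was at 378, 398 and 521 TPM against 778, 600 and 930 TPM, also without overlap, and was likewise upregulated after that scaling (1.24, adjusted p = 0.0196) but not on the deposited scale (0.82, adjusted p = 0.0593). With 1 library left out besides that scaling, the limma adjusted p of Hspa5 was 0.108 to 0.151 in 5 of 6 fits and 0.0147 without cold-acclimated replicate 3. That of Hspa9 was 0.0563 to 0.0875 in 4 of 6 fits, and 0.0239 and 0.0229 without non-acclimated and cold-acclimated replicate 3. Hspa8, the constitutive cytosolic Hsp70, was lower in all cold-acclimated libraries, at 1457, 1629 and 2097 TPM against 1170, 1164 and 1135 TPM, and its log2 fold change of -0.56 (SE 0.23, limma adjusted p = 0.124) became -0.15 after that scaling. The heat-inducible pair Hspa1a and Hspa1b was listed at 0 except for 0.0887 TPM of Hspa1b in 1 non-acclimated library, and since the copies are nearly identical their counts are uncertain. With the replicate as a term, the exchange factor Hspa4l, at 25.9, 23.4 and 12.1 TPM against 9.61, 11.2 and 7.26 TPM, was downregulated (limma adjusted p = 0.0208, and 0.0741 without the term).

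A ratio of a member to an Hsp70 within a library does not depend on the scale between libraries. The ratios below were chosen after the values had been seen and are given without a test. The share of all genes that differ relative to the same Hsp70 was not computed. Nothing particular to the family is therefore read from the counts below. On the deposited TPM the log2 fold change was 1.00 for Hspa5, 0.82 for Hspa9 and -0.56 for Hspa8. Its median over all tested genes was -0.34. A gene at that median gives a lower ratio to Hspa5 and Hspa9 and a higher one to Hspa8. For Hspa8, Hspa5 and Hspa9 the ratios cover every tested member placed in that compartment. The Hsp70 serves as a common divisor, whether or not it is known to work with each member. In mitochondria, all 6 tested members were lower relative to Hspa9 in each pair and without overlap. Hspa9 itself was higher in all cold-acclimated libraries, so a member whose TPM did not differ gives a lower ratio. Dnaja3 stood at 20.7, 16.4 and 16.7 TPM per 100 TPM of Hspa9 in non-acclimated cells and at 3.18, 1.92 and 2.56 in cold-acclimated cells. The conditions did not overlap, and the ratio in each pair was 0.153, 0.117 and 0.153 times that at 37°C. Dnajc19 per 100 TPM of Hspa9 went from 5.64, 5.95 and 3.96 to 2.67, 3.75 and 2.75, a smaller drop of the same direction, although the TPM of Dnajc19 itself overlapped.

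In the cytosol and nucleus, the 8 tested members of general folding differed in direction relative to Hspa8. Of these, 4 were higher without overlap, 1 was lower without overlap and 3 overlapped. Hspa8 itself was lower in all cold-acclimated libraries, so a member whose TPM did not differ gives a higher ratio. Dnajb1, counted here as higher, overlapped between the conditions in its own TPM, with a log2 fold change of -0.05 on the deposited scale. Dnaja2 was at 9.92, 12.0 and 8.90 TPM per 100 TPM of Hspa8 in non-acclimated cells and at 20.0, 19.6 and 24.3 in cold-acclimated cells. Dnajb6 went from 10.6, 8.69 and 5.84 to 15.8, 16.3 and 21.5, and Dnajb1 from 3.81, 3.37 and 2.85 to 5.83, 4.02 and 4.51. Dnajb4 was the fourth without overlap, at 0.286, 0.338 and 0.102 against 0.557, 0.742 and 0.494. Dnajb5 was lower without overlap, at 0.338, 0.278 and 0.333 against 0.208, 0.144 and 0.201. Dnajb2 fell in each pair, to 0.487, 0.373 and 0.549 times its ratio at 37°C, with overlap, and Dnajc7 had no common direction. Dnaja1 per 100 TPM of Hspa8 rose in each pair, by 1.38, 1.23 and 1.83 times, with overlap between 14.3 in non-acclimated replicate 3 and 13.6 in cold-acclimated replicate 1. The ratio of Dnaja2 to Dnaja1, which needs no Hsp70, was 1.46, 1.33 and 1.49 times that at 37°C within pairs, but the conditions overlapped, at 62.3 to 101 against 92.7 to 147 TPM per 100 TPM of Dnaja1.

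In the ER, all 11 members were lower relative to Hspa5 in each pair, 8 of them without overlap. Dnajc3 per 100 TPM of Hspa5 went from 7.50, 7.42 and 12.0 to 2.46, 2.84 and 6.17, without overlap. Dnajb9, Dnajb14, Dnajc1, Dnajc10, Dnajc14, Dnajc16 and Dnajc18 were also lower without overlap. Dnajb12 and Dnajc25 overlapped, and Dnajb11, at 7.23, 8.38 and 14.7 against 3.67, 3.58 and 11.1, overlapped as well. Since Hspa5 itself was higher at 26°C, a member whose TPM did not differ gives a lower ratio. Dnajc2 per 100 TPM of Hspa14 showed no common direction, at 108, 124 and 183 against 104, 133 and 133.

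**Figure D4:**
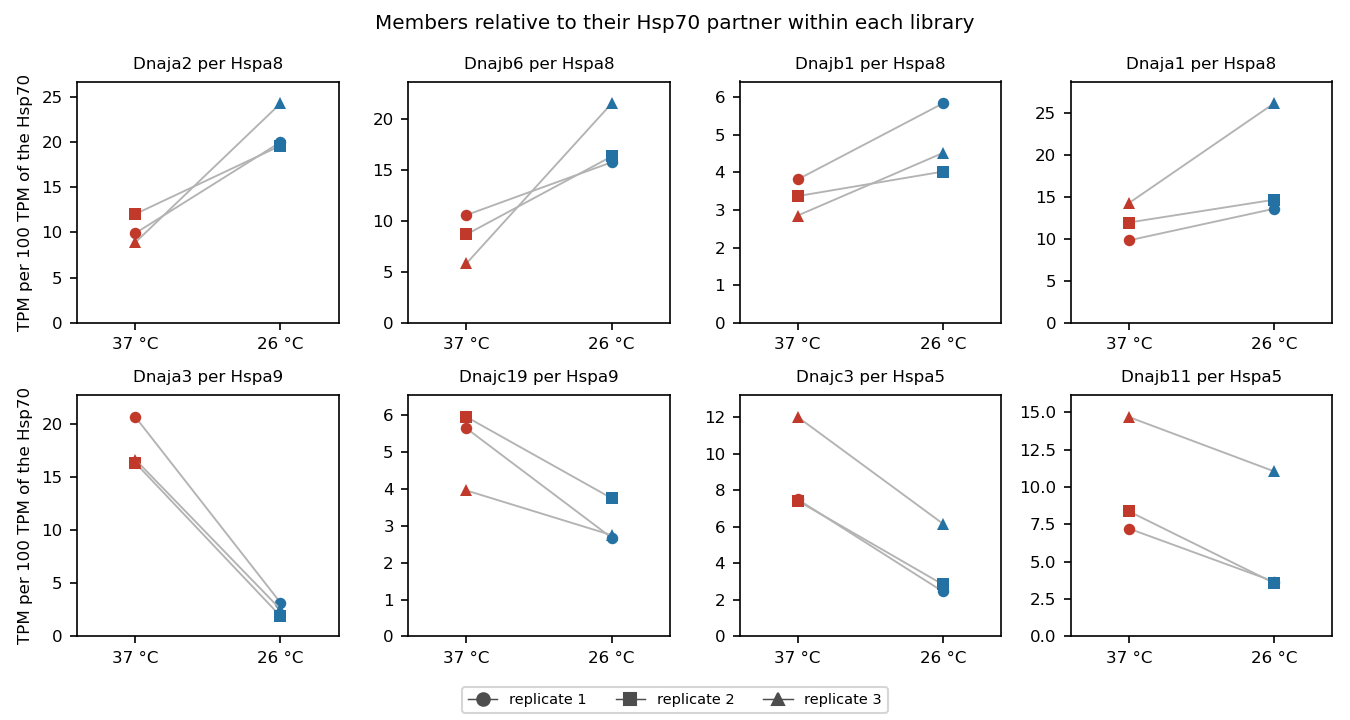
TPM of a member per 100 TPM of an Hsp70 in each library at 37°C (red) and 26°C (blue), with grey lines joining libraries of the same replicate number (circles, squares and triangles for replicates 1, 2 and 3). Dnaja2, Dnajb6 and Dnajb1 per Hspa8 are higher at 26°C without overlap, Dnaja3 and Dnajc19 per Hspa9 and Dnajc3 per Hspa5 are lower without overlap, and Dnaja1 per Hspa8 and Dnajb11 per Hspa5 overlap.

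Promoter stretches are shown for 2 members that carry a named element and for Hspa5, whose TPM is the divisor above. RefSeq promoters of 37 members were at hand (table of GRCm38.p6, placed on GRCm39 by exact match), each from 250 bases before to 50 after the start site, and both strands were searched. The letters searched were GAANNTTC and TTCNNGAA for paired heat shock units, GAANNTTCNNGAA and TTCNNGAANNTTC for 3 units, which contain the paired ones, and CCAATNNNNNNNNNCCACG for the ER stress element. The 3-unit form was found in 1 of the 37 members, Dnajb6, beside 0.662% of all 27025 genes, and the ER stress element in 1, Dnajc3, beside 0.137%. The paired forms were found in 5 and 3 members (13.5% and 8.11%), beside 9.04% and 9.60% of all genes. Capitals mark the match, which begins at -46, -105 and -65 from the start site in the order printed. For Dnajb6 a further start site is listed, whose window also holds the 3-unit form, and -46 does not refer to it.
Dnajb6 (chr5:29940830-29940882, plus strand): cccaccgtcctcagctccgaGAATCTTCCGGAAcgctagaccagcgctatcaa
Dnajc3 (chr14:119175219-119175277, plus strand): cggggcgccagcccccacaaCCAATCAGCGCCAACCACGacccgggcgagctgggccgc
Hspa5 (chr2:34662017-34662075, plus strand): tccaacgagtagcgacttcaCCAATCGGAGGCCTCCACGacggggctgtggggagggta

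On the deposited TPM, the values of Dnajc3 and Hspa5, the ER genes shown, differed: all cold-acclimated libraries were higher for Hspa5 and lower for Dnajc3. After median-of-ratios scaling the log2 fold changes had the same sign, at 0.09 for Dnajc3 and 1.41 for Hspa5. Dnajc3 was not called on either scale. A match in these windows is a description of letters and does not show binding of any factor.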

How the data were processed

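Total RNA of D10 T cells (3 cold-acclimated and 3 non-acclimated libraries) was poly(A)-selected and made into directional paired-end libraries. Per the submitters' processing notes, FastQC 0.11.7, Trimmomatic 0.38, HISAT2 2.1.0 and featureCounts 1.6.3 were used with GRCm39. The values used are TPM as deposited by the authors, which sum to 1000000 in each library. The annotation release, gene lengths, strand setting and the route from counts to TPM were not stated in any source used here. Reads shared between near-identical copies or with genes on the opposite strand could therefore change a TPM.

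Members were taken by gene symbol and type, and their sites of action, the partner lists and the marker lists from general knowledge. The values of 1 partner gene are not reported here. The members and lists were chosen with earlier results of these data known. The genes named were all class A members, members of classes B and C past both thresholds on the deposited scale or after median-of-ratios scaling, the 3 most abundant of each class, and Dnajb1, Dnajb9, Dnajb11, Dnajc2, Dnajc3, Hspa8, Hspa5, Hspa9, Hspa1a and Hspa1b. Dnajb4, Dnajc1, Dnajc10, Dnajc11, Dnajc14, Hspa4l and the other members named were chosen after their values were seen.

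limma 3.58.1 in R 4.3.3 was fitted with a mean-variance trend to log2(TPM + 1) for 12227 genes (mean TPM of 1 or more), with Benjamini-Hochberg adjustment over all of them. Whole reads were recovered from the steps of the TPM for all 21195 genes above 0. A solution was accepted only where the TPM ratios between libraries matched fractions of whole numbers. The largest deviation of 5.82e-11 reads is therefore small by construction and does not test the recovery. The limma fit and the recovery of reads were both run on simulated data with no replicate effect and as many genes raised as lowered. That setting differs from these data, so nothing about the calls is read from it. Whether replicate numbers pair libraries was checked from deviations from the condition means: these correlated across genes at 0.48, 0.50 and 0.51 for the same number and at -0.41 to 0.02 for different numbers. The labels speak of old and new batches of extraction without assigning them. Alternatives were a pseudocount of 0.1, no filter, median-of-ratios and quantile scaling, the replicate block, limma-voom on recovered reads with and without median-of-ratios scaling, and leaving out each library. The block with median-of-ratios scaling, both libraries of replicate 3 left out, and median-of-ratios scaling with each library left out were chosen after seeing the data. Sums, ratios and sequence searches used Python 3.11.15 with numpy 2.4.6 and pandas 2.3.3.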

Additional observations from a re-analysis of the deposited data

How the results depend on the processing

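Upregulated members numbered 0 on the deposited TPM, 3 after median-of-ratios scaling, 2 after quantile scaling, 4 with median-of-ratios scaling and the replicate block, and 2 with voom after that scaling, beside 2.63%, 6.87%, 5.98%, 9.23% and 6.48% of all genes. Downregulated members numbered 4 (beside 16.0%), against 2 without the filter (5.29%), 1 after median-of-ratios (8.60%) or quantile scaling (6.26%), 7 with the replicate block (21.9%), 1 with voom after median-of-ratios scaling (8.93%), and 1 to 6 when a library was left out (2.82% to 22.3%). With median-of-ratios scaling and a library left out, 0 to 3 were upregulated (0.00% to 9.92%) and 0 to 4 downregulated (0.00% to 12.8%). Upregulated partners numbered 0 (beside 2.63%), against 2 after median-of-ratios scaling alone (6.87%), with the block (9.23%) or with voom (6.48%). They numbered 1 without both libraries of replicate 3 (5.34%) and 0 to 1 with a library left out (0.483% to 3.75%). Downregulated partners numbered 0 (beside 16.0%), against 1 with the block (21.9%) or without replicate 3 (25.3%) and 0 to 2 with a library left out (2.82% to 22.3%). The block, which uses the pairing of libraries by number, changed no other call among the genes named. The log2 fold change changed sign after median-of-ratios scaling, alone and with the block, for Dnaja1 (0.40), Dnajb1 (0.36), Dnajb9 (0.099), Dnajc3 (0.0918) and Dnajc8 (0.17), and so it did for Dnajb14 (0.12), Dnajc7 (0.01), Dnajc16 (0.20), Dnajc24 (0.08) and Dnajc30 (0.18), 10 members in all. For the first 5 it also did with voom after that scaling (0.40, 0.36, 0.13, 0.0925 and 0.17). It also did with quantile scaling for Dnajb1 (0.21) and Dnajb9 (0.22), with voom for Dnaja1 (0.12) and Dnajb1 (0.0742), and without replicate 3 for Dnajb1 (0.034) and Dnajb11 (-0.0133). With 1 library left out, it ranged from -0.30 to 0.26 for Dnaja1, from -0.21 to 0.0602 for Dnajb1 and from -0.11 to 0.38 for Dnajb11. The median of class C relative to all genes changed sign without the filter (-0.21), with quantile scaling (-0.06) without replicate 3 (-0.10), and without cold-acclimated replicate 1 (-0.02) or 3 (-0.12). That of class A did with quantile scaling (-0.04). The causes of these changes were not tested. With 3 libraries a condition, changes near a log2 fold change of 1 crossed the thresholds when 1 library was left out.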

Other observations

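Proteins with a J domain but another name were followed as a list of 4, all tested and none called by limma on the deposited TPM or after median-of-ratios scaling. Sec63, the J protein of the ER translocon, was at 41.7, 60.1 and 48.0 TPM in non-acclimated and 40.1, 63.1 and 53.1 TPM in cold-acclimated cells, and Hscb, which serves iron-sulfur cluster assembly, at 75.3, 64.0 and 40.9 TPM against 57.4, 52.8 and 45.9 TPM. Gak, the broadly expressed relative of auxilin, was at 45.8, 42.4 and 57.9 TPM against 62.3, 51.8 and 64.2 TPM, higher in each pair with overlap.

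The 14 nucleotide exchange factors, which release ADP from Hsp70, had a median log2 fold change of 0.14, beside -0.34 over all genes, and 10 of them had an estimate above 0. Bag3, known as a stress-inducible factor, was at 84.7, 167 and 75.0 TPM against 95.3, 172 and 82.2 TPM, so that the replicate rather than the temperature separated its libraries. Stub1, the ubiquitin ligase that binds Hsp70, was lower without overlap, at 121, 112 and 132 TPM against 66.2, 50.7 and 91.4 TPM (log2 fold change -0.84, limma adjusted p = 0.0596, 0.0232 with the replicate block). After median-of-ratios scaling its log2 fold change was -0.43 (limma adjusted p = 0.227, 0.105 with the replicate block).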
